A study of Mus musculus with 12 samples.

Results

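The genes described here are those of the Wnt, BMP and TGF-beta signalling families in the developing mouse cortex. They were taken by gene symbol alone. On the Wnt side these were symbols of Wnts and their secretion factor, Frizzled receptors, R-spondins, secreted Wnt modulators and TCF/LEF factors. On the other side they were BMPs and GDFs, activins, TGF-beta ligands and latency proteins, secreted BMP and activin modulators, receptors and Smads. Of the 4859 coding genes in the deposited table, 68 matched. Among these are 4 genes that share only a name stem with the families (Fstl1, Fstl5, Tgfb1i1 and Tgfbi). The symbol rule does not take the BMP receptors of the Bmpr name.

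The series measured polyadenylated RNA of cells sorted from the cerebral cortex of Tg(Ebf2-EGFP)FB58Gsat mouse embryos, in which a bacterial artificial chromosome places EGFP under the control regions of the transcription factor gene Ebf2. Ebf2-EGFP+ and Ebf2-EGFP- cells were separated by fluorescence at 3 embryonic stages (E11.5, E13.5, E15.5), with 2 libraries in each of the 6 groups, 12 libraries in all. All groups carry the transgene, no treatment was given, and embryos were pooled for each sort, so a library is a pool and not 1 animal. By the study's account the EGFP+ cells are preplate neurons at E11.5 and Cajal-Retzius (CR) neurons by E15.5, while the EGFP- cells are mostly progenitors at E11.5 and later include cortical plate neurons. The question put to the table here was how the signalling genes differed between the populations at each stage, and how those differences moved with age.

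Wnt proteins bind Frizzled receptors, and in the canonical branch this stabilises beta-catenin, which then works with TCF/LEF factors at target genes. R-spondins raise, and the Sfrp, Dkk, Wif1 and Frzb proteins restrain, what a cell receives. BMPs, GDFs, activins and TGF-betas bind pairs of serine/threonine kinase receptors that phosphorylate Smads, and are held in check outside the cell by Noggin, Chordin-like and follistatin proteins. In the early telencephalon the cortical hem, a strip at the medial edge of the cortex, is a known source of Wnts and BMPs, and it is also 1 of the places where CR neurons are born. BMPs are also made by the choroid plexus and the meninges.

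The values are FPKM, fragments per kilobase of transcript, scaled to the mapped fragments of each library, which allow levels of different genes to be compared per length. Differences between populations are given as log2 fold changes, Ebf2-EGFP+ minus Ebf2-EGFP-, on the log2(FPKM + 1) scale, which understates the change of genes at low FPKM. Each comes with its standard error from limma, after the ± sign, and an adjusted p (Benjamini-Hochberg over all 4859 genes), with 2 libraries a group, and a gene is called where the adjusted p is under 0.05. Because the deposited table lists only genes that the authors reported as differential, most genes in it are called. Each count of signalling genes is therefore set beside the share of all listed genes called. The listed genes were selected from these same libraries, so the adjusted p is lenient and is no independent test. For Bmp7 at E11.5 a limma p of 0.0135 became an adjusted p of 0.0176. The study states an average read number for its samples, but FPKM do not show the depth of each library, so no counting error is given. Members ranged widely in level. In 33 of the 68 at least 1 group mean reached 10 FPKM, and in 15 the mean over all libraries was under 1 FPKM.

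Library-wide facts bear on the reading of these values. The labelled populations were borne out by their markers, with the summed level of 7 CR genes (Reln, Trp73, Calb2, Lhx1, Lhx5, Ebf3 and Nhlh2) at 328 to 364 FPKM in EGFP+ and 11.1 to 12.1 FPKM in EGFP- cells at E11.5, and at 561 to 1145 against 16.4 to 23.9 FPKM at E15.5. At E15.5 the 5 cortical plate markers stood as high in EGFP+ cells (625 to 971 FPKM) as in EGFP- cells (696 to 862 FPKM), so the EGFP+ libraries also held RNA of genes that mark other cortical neurons. They still held progenitor genes, the 8 radial glia markers summing to 406 to 430 FPKM at E11.5 against 1341 to 1624 FPKM in EGFP- cells. Vim alone gave 338 and 311 FPKM of these EGFP+ sums, against 816 and 638 FPKM in EGFP- cells. Sox2 stood at 16.2 and 13.3 FPKM in EGFP+ against 210 and 165 FPKM in EGFP- cells. All 8 markers were called lower in EGFP+ cells at E11.5, with a median log2 fold change of -3.33. Scaling by the median of ratios raised the median log2 fold change of all genes by 0.19, 0.19 and 0.13 at the 3 stages. Under that scaling no called difference of the 68 genes changed sign, and the calls between populations that it ended are named with their genes. Both replicates of each group lay close together over all genes, with Pearson's r between 0.981 and 0.992. The E15.5 EGFP+ replicates still differed in their markers. Replicate 1 held 561 FPKM of CR and 971 FPKM of cortical plate genes, and replicate 2 held 1145 and 625 FPKM. Over the 68 genes r was lowest in E15.5 EGFP+ (0.953) and E15.5 EGFP- cells (0.974), and highest in E11.5 EGFP+ cells (0.991).

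At E11.5 the signalling genes were mostly lower in Ebf2-EGFP+ cells. Of the 68, 55 were called, or 80.9% against 81.7% of all listed genes, and the split was 11 higher and 44 lower. That is 16.2% higher where all listed genes gave 36.8%, and 64.7% lower where all gave 44.9%. In sorted pools such as these, fewer cells of a type and less RNA per cell cannot be told apart. The median log2 fold change of the members was -1.10, beside -0.19 over all genes. At E13.5, 35 were called (51.5%, against 75.6% of all), 7 of them higher and 28 lower, beside 32.1% and 43.5% of all genes in those directions. The member median was then -0.20, close to the -0.19 of all genes. At E15.5, 39 members were called, a share of 57.4% that equals the share of all genes, with 17 higher and 22 lower, where 25.8% and 31.6% of all genes were called higher and lower. So the share of signalling genes lower in EGFP+ cells stood well above that of the whole list at E11.5 and close to it at both later stages. The share higher in EGFP+ cells stood below that of the whole list at E11.5 and at E13.5 (10.3% against 32.1%). At E15.5 it was close to it (25% against 25.8%). Counts by role are to be read against these shares.

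**Figure D1:**
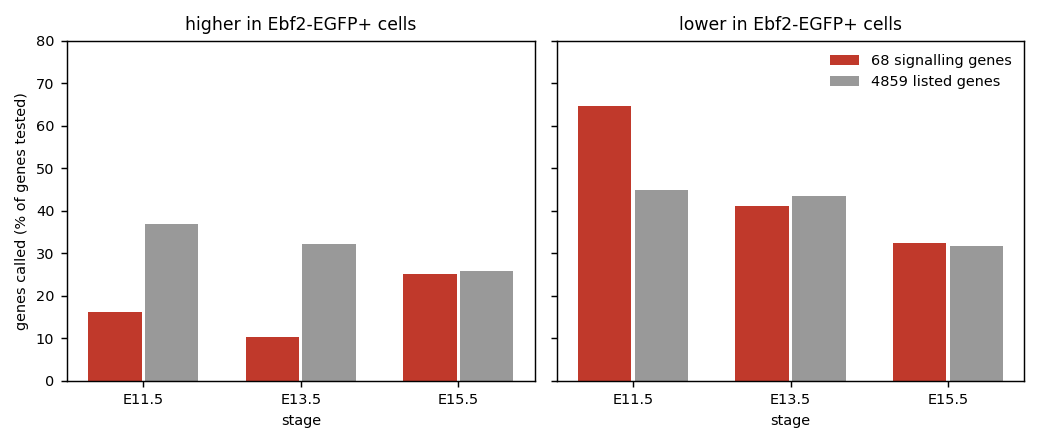
Bars give the percent of genes called higher (left) or lower (right) in Ebf2-EGFP+ than in Ebf2-EGFP- cells at each stage, for the 68 signalling genes in red and all 4859 listed genes in grey. At E11.5 the red bars stand at 16.2% higher and 64.7% lower, against 36.8% and 44.9% of all genes, and at E15.5 both pairs of bars are nearly level.

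Taken stage by stage, 65 of the 68 genes were called at 1 or more stages and 19 at all 3. Of the latter, 16 were lower in EGFP+ cells throughout (23.5% of members, 21.8% of all genes), and Wnt7b alone was higher throughout (1.47% against 14.6%). The most frequent other course was lower at E11.5 and not called afterwards, with 13 members (19.1% against 5.89%). Another 6 members were lower at E11.5, not called at E13.5 and higher at E15.5, or 8.82% against 1.42% of all genes. The highest of the 6 group means lay in E11.5 EGFP- cells for 35 members (51.5% against 40.3%) and in E15.5 EGFP+ cells for 9 (13.2% against 29.1%). These shares are descriptions, since the list was chosen with results of these data known.

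**Figure D2:**
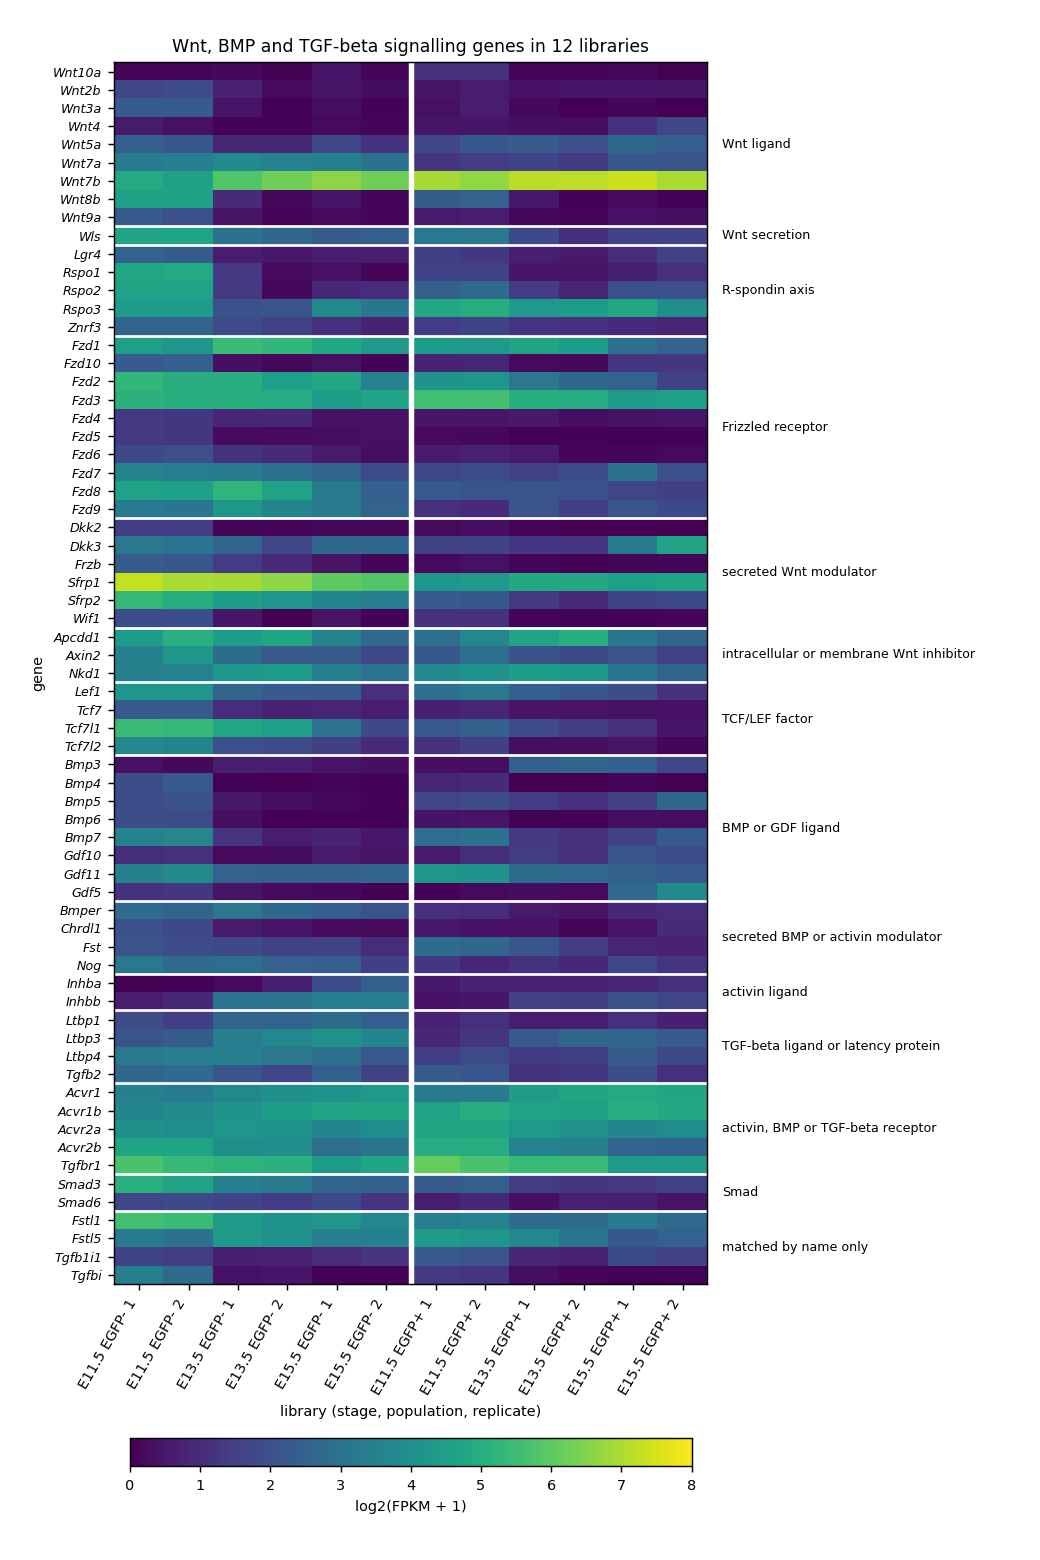
Each row is a signalling gene, ordered by role, and each column 1 library, with Ebf2-EGFP- libraries left of the white line and Ebf2-EGFP+ libraries right of it. Colour gives log2(FPKM + 1). Wnt7b is the brightest row of the EGFP+ libraries, Sfrp1 is bright in EGFP- cells, and many rows are brightest in the first pair of columns, the E11.5 EGFP- libraries.

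The 250 bases before the start site were searched in the 47 members that matched a RefSeq promoter entry (GRCm38.p6, the assembly behind mm10), for the core bound by TCF/LEF factors, CTTTGA, on both strands, and for the core bound by EBF factors, CCCNNGGG, which reads the same on both strands. The first was in 4 of 47 promoters (8.51%), beside 9.61% of the 3558 listed genes with an entry and 14.0% of all 27025 entries. The second was in 13 of 47 (27.7%), beside 18.2% and 11.7%. Bmper, a secreted BMP-binding protein, and Frzb, a secreted Frizzled decoy, were the members that held both, and their stretches are shown for that reason, 5′ to 3′ on the gene's strand with matches to either core in capitals. Both genes were lower in EGFP+ cells at E11.5 and E13.5. A match describes letters only.
Bmper, chr9:23222826-23223075, plus strand: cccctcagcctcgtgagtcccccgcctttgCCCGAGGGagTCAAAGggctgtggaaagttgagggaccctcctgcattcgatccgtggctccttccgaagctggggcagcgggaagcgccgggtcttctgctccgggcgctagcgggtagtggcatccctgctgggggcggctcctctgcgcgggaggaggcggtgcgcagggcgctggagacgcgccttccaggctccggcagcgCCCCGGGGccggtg
Frzb, chr2:80447397-80447646, minus strand: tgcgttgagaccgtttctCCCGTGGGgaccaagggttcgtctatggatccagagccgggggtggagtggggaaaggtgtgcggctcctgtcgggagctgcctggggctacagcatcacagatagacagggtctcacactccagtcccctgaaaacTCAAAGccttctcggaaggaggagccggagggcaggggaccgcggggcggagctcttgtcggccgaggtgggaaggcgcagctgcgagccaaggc

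Of the 19 Wnt ligands looked for, 9 were in the table, with 2 called higher and 5 lower in EGFP+ cells at E11.5. At E13.5 it was 2 higher against 1 lower, and 3 against 1 at E15.5. Wnt7b (chromosome 15, 85535437 to 85581821), a Wnt made by cortical neurons, was the most abundant member in EGFP+ cells. Wnt7b measured 28.6 and 22.8 FPKM in the EGFP- libraries of E11.5, 56.3 and 75.5 in those of E13.5 and 97.1 and 75.1 in those of E15.5, against 121 and 104, 142 and 146, and 165 and 122 FPKM in the EGFP+ libraries. Both EGFP+ libraries exceeded both EGFP- libraries at each stage, while the gap narrowed as the EGFP- level rose. Wnt7b had log2 fold changes of 2.09 ± 0.204 (adjusted p = 3.43e-06) at E11.5, 1.13 ± 0.204 (adjusted p = 0.000423) at E13.5 and 0.73 ± 0.204 (adjusted p = 0.00994) at E15.5. Wnt7b was no longer called at E15.5 without EGFP- replicate 2 (0.54, adjusted p = 0.0738) or without EGFP+ replicate 1 (0.51, adjusted p = 0.0934). Wnt7a, its close relative, went the other way. Wnt7a read 8.66 and 9.72 FPKM (E11.5), 12.8 and 10.6 (E13.5) and 9.84 and 7.17 (E15.5) in EGFP- cells, and 1.36 and 1.72, 2.03 and 1.58, and 3.65 and 3.31 FPKM in EGFP+ cells. The EGFP- cells were the higher at every stage, with -2.01 ± 0.191 (adjusted p = 2.96e-06) at E11.5 and -1.07 ± 0.191 (adjusted p = 0.000643) at E15.5.

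Wnt8b, which is known as a marker of the hem and medial pallium, was the Wnt with the largest negative difference at E11.5. Wnt8b stood at 4.11 and 4.67 FPKM (E11.5), 0.446 and 0.0445 (E13.5) and 0.143 and 0.0639 (E15.5) in the EGFP+ libraries, where the EGFP- libraries held 22.3 and 22.7, 0.933 and 0.121, and 0.368 and 0.0996. It fell to under 1 FPKM in all libraries of the later stages. Wnt8b had log2 fold changes of -2.13 ± 0.239 (adjusted p = 8.79e-06) at E11.5, -0.26 ± 0.239 (adjusted p = 0.335) at E13.5 and -0.15 ± 0.239 (adjusted p = 0.598) at E15.5. The hem-expressed Wnt3a, with Wnt9a and Wnt2b, took the same course, lower in EGFP+ cells at E11.5 and not called later, with E11.5 differences of -1.85 for Wnt3a (adjusted p = 1.03e-06), -1.51 for Wnt9a (adjusted p = 1.73e-06) and -1.27 for Wnt2b (adjusted p = 2.57e-05). Wnt3a and Wnt9a are neighbours on chromosome 11, 16.1 kb apart. Wnt10a was higher in EGFP+ cells at E11.5, at 1.19 and 1.19 against 0.0762 and 0.105 FPKM (1.01 ± 0.125, adjusted p = 1.84e-05), and was under 1 FPKM in every later library.

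Wnt5a and Wnt4, which often signal without beta-catenin, were higher in EGFP+ cells late. Wnt5a read 4.31 and 3.39 FPKM (E11.5), 0.796 and 0.824 (E13.5) and 2.27 and 1.25 (E15.5) in EGFP- cells, and 2.28 and 3.56, 3.94 and 2.85, and 5.43 and 4.204 FPKM in EGFP+ cells. At E11.5 the libraries of the populations overlapped, and at E13.5 and E15.5 both EGFP+ libraries lay above both EGFP- libraries. Its log2 fold change was -0.32 ± 0.233 (adjusted p = 0.222), 1.27 ± 0.233 (adjusted p = 0.000476) and 1.09 ± 0.233 (adjusted p = 0.00203) at the successive stages. Wnt4 read 0.496 and 0.278 FPKM (E11.5), 0.06296 and 0.0591 (E13.5) and 0.152 and 0.08004 (E15.5) in EGFP- cells, and 0.345 and 0.377, 0.243 and 0.224, and 1.23 and 2.25 FPKM in EGFP+ cells. Only at E15.5 was Wnt4 called, at 1.27 ± 0.153 (adjusted p = 4.36e-05).

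Wls, the carrier that brings lipid-modified Wnts to the cell surface, was higher in EGFP- cells throughout. Wls read 25.7 and 24.3 FPKM (E11.5), 6.89 and 5.55 (E13.5) and 3.86 and 4.22 (E15.5) in EGFP- cells, and 8.31 and 8.09, 2.47 and 1.06, and 1.97 and 2.05 FPKM in EGFP+ cells. Wls had log2 fold changes of -1.497 ± 0.222 (adjusted p = 6.75e-05) at E11.5, -1.43 ± 0.222 (adjusted p = 0.000151) at E13.5 and -0.74 ± 0.222 (adjusted p = 0.0137) at E15.5. Wls was no longer called at E15.5 without EGFP- replicate 2 (-0.69, adjusted p = 0.0513) or without EGFP+ replicate 1 (-0.72, adjusted p = 0.0563). Its level fell with age in both populations.

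The R-spondin axis was represented by 5 of 8 genes, of which 4 were lower at E11.5 and none higher, and 3 were higher at E15.5 and none lower. R-spondins bind Lgr receptors and take the ubiquitin ligases Znrf3 and Rnf43 off the cell surface, which leaves more Frizzled there. Rspo1 (chromosome 4, 124986401 to 125009102) had the largest negative E11.5 difference among the members. Rspo1 measured 26.7 and 28.4 FPKM in the EGFP- libraries of E11.5, 1.53 and 0.183 in those of E13.5 and 0.297 and 0.113 in those of E15.5, against 2.02 and 1.97, 0.388 and 0.345, and 0.637 and 1.11 FPKM in the EGFP+ libraries. The EGFP- libraries at E11.5 stood far above all others, and the E13.5 EGFP- replicates differed widely from each other. Rspo1 had log2 fold changes of -3.25 ± 0.276 (adjusted p = 1.42e-06) at E11.5, -0.34 ± 0.276 (adjusted p = 0.278) at E13.5 and 0.63 ± 0.276 (adjusted p = 0.0685) at E15.5. Rspo1 passed the test at E15.5 with the replicate number as a block (adjusted p = 0.0266) and with median-of-ratios scaling (0.73, adjusted p = 0.0278).

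Rspo2 followed a similar course and was called higher in EGFP+ cells at the end. Rspo2 stood at 4.503 and 5.88 FPKM (E11.5), 1.63 and 0.777 (E13.5) and 2.87 and 2.899 (E15.5) in the EGFP+ libraries, where the EGFP- libraries held 23.9 and 23.7, 1.51 and 0.123, and 0.877 and 1.01. At E15.5 both EGFP+ libraries lay above both EGFP- libraries. Rspo2 had log2 fold changes of -2.01 ± 0.312 (adjusted p = 9.28e-05) at E11.5, 0.36 ± 0.312 (adjusted p = 0.302) at E13.5 and 1.001 ± 0.312 (adjusted p = 0.0167) at E15.5. Rspo2 was no longer called at E15.5 without EGFP- replicate 1 (0.95, adjusted p = 0.0638), without EGFP+ replicate 1 (1.01, adjusted p = 0.0587) or without EGFP+ replicate 2 (0.996, adjusted p = 0.0588), or with a pseudocount of 0.1 (1.52, adjusted p = 0.0654). Lgr4, a receptor of R-spondins, was likewise lower at E11.5 (-1.04 ± 0.174, adjusted p = 0.000159) and higher at E15.5 (0.64 ± 0.174, adjusted p = 0.00819), with 1.05 and 1.95 FPKM in EGFP+ against 0.565 and 0.586 FPKM in EGFP- libraries. Lgr4 was no longer called at E15.5 without EGFP+ replicate 2 (0.38, adjusted p = 0.081).

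Rspo3 was high in EGFP+ cells at all 3 stages. Rspo3 measured 19.9 and 20.3 FPKM in the EGFP- libraries of E11.5, 3.06 and 3.33 in those of E13.5 and 12.9 and 7.77 in those of E15.5, against 26.7 and 30.6, 18.97 and 19.9, and 26.2 and 14.8 FPKM in the EGFP+ libraries. The EGFP- libraries were lowest at E13.5. Rspo3 had log2 fold changes of 0.49 ± 0.252 (adjusted p = 0.0916) at E11.5, 2.29 ± 0.252 (adjusted p = 1.75e-05) at E13.5 and 0.91 ± 0.252 (adjusted p = 0.00904) at E15.5. Rspo3 passed the test at E11.5 with the replicate number as a block (adjusted p = 0.00193) and with median-of-ratios scaling (0.74, adjusted p = 0.0122). Rspo3 was no longer called at E15.5 without EGFP- replicate 2 (0.58, adjusted p = 0.0808) or without EGFP+ replicate 1 (0.52, adjusted p = 0.104), or when only the compared groups were fitted (0.91, adjusted p = 0.081). Znrf3, the ligase on which R-spondins act, declined in both populations. Znrf3 read 5.06 and 4.95 FPKM (E11.5), 2.58 and 2.01 (E13.5) and 1.17 and 0.691 (E15.5) in EGFP- cells, and 1.696 and 2.14, 1.31 and 1.17, and 0.918 and 0.816 FPKM in EGFP+ cells. It was lower in EGFP+ cells at E11.5 (-1.05 ± 0.164, adjusted p = 0.000103) and E13.5 (-0.55 ± 0.164, adjusted p = 0.00977), and at E15.5 its difference was -0.04 ± 0.164 (adjusted p = 0.856). Znrf3 was no longer called at E13.5 without EGFP- replicate 1 (-0.43, adjusted p = 0.0777) or without EGFP+ replicate 2 (-0.504, adjusted p = 0.0568).

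All 10 Frizzled genes were in the table. At E11.5, 8 were lower in EGFP+ cells and 1 higher, at E13.5 7 lower and none higher, and at E15.5 5 lower and 1 higher. Fzd8, a receptor of cortical progenitors, had the largest difference among them at E11.5. Fzd8 measured 23.6 and 22.7 FPKM in the EGFP- libraries of E11.5, 36.96 and 23.4 in those of E13.5 and 8.47 and 4.43 in those of E15.5, against 3.77 and 3.197, 3.38 and 3.08, and 2.196 and 1.86 FPKM in the EGFP+ libraries. Every EGFP- library exceeded every EGFP+ library of its stage. Fzd8 had log2 fold changes of -2.43 ± 0.261 (adjusted p = 6.12e-06) at E11.5, -2.85 ± 0.261 (adjusted p = 6.31e-06) at E13.5 and -1.25 ± 0.261 (adjusted p = 0.00183) at E15.5. Fzd9 behaved alike, with -2.23 at E11.5 (adjusted p = 1.68e-05), -2.17 at E13.5 (adjusted p = 4.08e-05) and -1.01 at E15.5 (adjusted p = 0.00834). Fzd9 was no longer called at E15.5 without EGFP- replicate 1 (-0.64, adjusted p = 0.0881) or without EGFP+ replicate 2 (-0.87, adjusted p = 0.056).

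Fzd2 and Fzd1 had their largest fitted differences at E15.5. Fzd2 read 38.3 and 30.8 FPKM (E11.5), 31.7 and 22.1 (E13.5) and 26.1 and 10.8 (E15.5) in EGFP- cells, and 16.7 and 17.7, 7.98 and 5.36, and 4.66 and 1.97 FPKM in EGFP+ cells. The E15.5 EGFP- replicates of Fzd2 differed more than 2-fold from each other, yet both stood above the EGFP+ pair. Fzd2 had log2 fold changes of -0.96 ± 0.376 (adjusted p = 0.0332) at E11.5, -1.86 ± 0.376 (adjusted p = 0.000898) at E13.5 and -2.12 ± 0.376 (adjusted p = 0.000624) at E15.5. Fzd2 was no longer called at E11.5 without EGFP- replicate 1 (-0.80, adjusted p = 0.152), without EGFP- replicate 2 (-1.11, adjusted p = 0.0569), without EGFP+ replicate 1 (-0.92, adjusted p = 0.112) or without EGFP+ replicate 2 (-0.99, adjusted p = 0.0892), or with median-of-ratios scaling (-0.70, adjusted p = 0.0715). For Fzd1 the populations overlapped at E11.5 (-0.04 ± 0.199, adjusted p = 0.874), and EGFP- cells were higher at E13.5 (-0.86 ± 0.199, adjusted p = 0.00224) and at E15.5 (-1.82 ± 0.199, adjusted p = 2.33e-05), where 26.5 and 18.7 FPKM stood against 6.54 and 4.77 FPKM.

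Fzd3, a receptor known for axon guidance, was the Frizzled that was higher in EGFP+ cells at E11.5. Fzd3 stood at 47.2 and 48.00 FPKM (E11.5), 31.3 and 29.96 (E13.5) and 18.6 and 21.9 (E15.5) in the EGFP+ libraries, where the EGFP- libraries held 34.2 and 31.3, 32.4 and 29.8, and 21.2 and 25.04. At both later stages the populations overlapped, and its log2 fold change was 0.53 ± 0.141 (adjusted p = 0.00436), -0.02 ± 0.141 (adjusted p = 0.893) and -0.18 ± 0.141 (adjusted p = 0.28) at the successive stages. Fzd10 reversed. Fzd10 read 3.88 and 4.53 FPKM (E11.5), 0.259 and 0.138 (E13.5) and 0.272 and 0.0661 (E15.5) in EGFP- cells, and 0.711 and 0.792, 0.158 and 0.127, and 1.41 and 1.42 FPKM in EGFP+ cells. The EGFP- cells were higher at E11.5 (-1.57 ± 0.126, adjusted p = 1.04e-06) and the EGFP+ cells at E15.5 (1.05 ± 0.126, adjusted p = 4.29e-05), with all libraries under 1 FPKM between. The remaining Frizzleds, Fzd4, Fzd5, Fzd6 and Fzd7, were lower in EGFP+ cells at E11.5, from -1.66 for Fzd7 (adjusted p = 0.000372) to -0.82 for Fzd4 (adjusted p = 3.6e-05). Of these, Fzd5 alone was called at E15.5, at -0.27 ± 0.0877 (adjusted p = 0.0196). Fzd5 was no longer called at E15.5 without EGFP- replicate 2 (-0.24, adjusted p = 0.0973) or without EGFP+ replicate 1 (-0.25, adjusted p = 0.0763), or without a mean-variance trend (-0.27, adjusted p = 0.0775). Fzd4 was no longer called at E13.5 without EGFP+ replicate 2 (-0.32, adjusted p = 0.0537).

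Of 11 secreted modulators of Wnts 6 were in the table, and all 6 were lower in EGFP+ cells at E11.5. Sfrp2, a Frizzled-related decoy of progenitors, led. Sfrp2 measured 39.2 and 30.7 FPKM in the EGFP- libraries of E11.5, 21.1 and 17.4 in those of E13.5 and 11.8 and 9.59 in those of E15.5, against 3.89 and 3.57, 1.52 and 0.959, and 2.06 and 2.49 FPKM in the EGFP+ libraries. The populations did not overlap at any stage. Sfrp2 had log2 fold changes of -2.92 ± 0.196 (adjusted p = 3.55e-07) at E11.5, -3.18 ± 0.196 (adjusted p = 1.42e-06) at E13.5 and -1.83 ± 0.196 (adjusted p = 2.03e-05) at E15.5. Sfrp1, its more abundant relative, held 155 and 124 FPKM in EGFP- and 17.98 and 18.9 FPKM in EGFP+ cells at E11.5, with differences of -2.85 ± 0.158 (adjusted p = 9e-08) at E11.5 and -1.34 ± 0.158 (adjusted p = 3.79e-05) at E15.5.

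Frzb, whose promoter is shown above, measured 4.03 and 3.54 FPKM in EGFP- and 0.149 and 0.296 FPKM in EGFP+ libraries at E11.5, and was lower in EGFP+ cells, at -1.97 ± 0.151 (adjusted p = 7.65e-07) then and at -1.06 ± 0.151 (adjusted p = 8.55e-05) at E13.5. Wif1, which binds Wnts directly, and Dkk2, a ligand of the Wnt co-receptor Lrp6, were called at E11.5 alone, at -0.78 for Wif1 (adjusted p = 0.000487) and -1.17 for Dkk2 (adjusted p = 6.94e-07). Wif1 was no longer called at E11.5 with a pseudocount of 0.1 (-1.15, adjusted p = 0.0896). Dkk3, a Dickkopf relative that does not bind Lrp6 as its relatives do, ended on the other side. Dkk3 stood at 1.91 and 2.12 FPKM (E11.5), 1.44 and 1.38 (E13.5) and 9.05 and 23.4 (E15.5) in the EGFP+ libraries, where the EGFP- libraries held 8.01 and 7.34, 5.06 and 2.22, and 5.46 and 5.43. The E15.5 EGFP+ replicates differed more than 2-fold, and both exceeded the EGFP- pair. Dkk3 had log2 fold changes of -1.53 ± 0.358 (adjusted p = 0.0019) at E11.5, -0.88 ± 0.358 (adjusted p = 0.0425) at E13.5 and 1.28 ± 0.358 (adjusted p = 0.00968) at E15.5. Dkk3 was no longer called at E15.5 without EGFP+ replicate 2 (0.64, adjusted p = 0.104), or when only the compared groups were fitted (1.28, adjusted p = 0.057). At E13.5 the Dkk3 call was lost without either E13.5 EGFP+ replicate, without replicate 1 of the EGFP- cells and without any 1 of the 4 E11.5 libraries, with the difference between -0.89 and -0.42 (adjusted p = 0.0582 to 0.364), and with median-of-ratios scaling it was -0.66 (adjusted p = 0.108).

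Axin2 and Apcdd1, both targets and brakes of canonical Wnt signalling, were lower in EGFP+ cells at E11.5, and neither was called later. Apcdd1 read 19.8 and 32.6 FPKM (E11.5), 20.7 and 24.9 (E13.5) and 10.98 and 5.73 (E15.5) in EGFP- cells, and 6.77 and 12.4, 24.7 and 31.5, and 7.82 and 5.02 FPKM in EGFP+ cells. The populations overlapped at both later stages. Its log2 fold change was -1.37 ± 0.338 (adjusted p = 0.00258), 0.29 ± 0.338 (adjusted p = 0.452) and -0.30 ± 0.338 (adjusted p = 0.461) at the successive stages. Apcdd1 passed the test at E13.5 with the replicate number as a block (adjusted p = 0.0456). Apcdd1 also passed the test at E15.5 with the replicate number as a block (adjusted p = 0.0441). Axin2 gave -1.36 ± 0.327 (adjusted p = 0.00221) at E11.5 and -0.62 ± 0.327 (adjusted p = 0.105) at E13.5. Axin2 passed the test at E13.5 with the replicate number as a block (adjusted p = 0.00261). Nkd1, an inhibitor that binds Dishevelled, was called at no stage, with differences of 0.43 ± 0.219 (adjusted p = 0.0899), 0.07 ± 0.219 (adjusted p = 0.792) and -0.41 ± 0.219 (adjusted p = 0.126) in stage order. Nkd1 passed the test at E11.5 with the replicate number as a block (adjusted p = 0.00916) and with median-of-ratios scaling (0.66, adjusted p = 0.00866). Nkd1 also passed the test at E15.5 with the replicate number as a block (adjusted p = 0.0152).

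The 4 TCF/LEF factors were all lower in EGFP+ cells at E11.5. Tcf7l1, which mainly represses Wnt targets and marks early progenitors, had the largest difference. Tcf7l1 measured 42.6 and 39.1 FPKM in the EGFP- libraries of E11.5, 26.7 and 22.1 in those of E13.5 and 7.26 and 2.37 in those of E15.5, against 3.75 and 4.45, 2.61 and 1.75, and 1.095 and 0.384 FPKM in the EGFP+ libraries. Its level declined with age in both populations, and the EGFP- libraries were the higher at each stage. Tcf7l1 had log2 fold changes of -3.04 ± 0.346 (adjusted p = 9.72e-06) at E11.5, -3.01 ± 0.346 (adjusted p = 2.26e-05) at E13.5 and -1.63 ± 0.346 (adjusted p = 0.00197) at E15.5. Tcf7l2 was also lower at all stages, from -2.33 ± 0.199 (adjusted p = 1.48e-06) at E11.5 to -0.97 ± 0.199 (adjusted p = 0.00159) at E15.5, and so was Tcf7, from -1.52 ± 0.134 (adjusted p = 1.75e-06) to -0.39 ± 0.134 (adjusted p = 0.026). Tcf7 was no longer called at E13.5 without EGFP- replicate 1 (-0.31, adjusted p = 0.0855). Tcf7 was no longer called at E15.5 without EGFP- replicate 1 (-0.28, adjusted p = 0.18), without EGFP+ replicate 1 (-0.37, adjusted p = 0.0946) or without EGFP+ replicate 2 (-0.41, adjusted p = 0.061). Lef1 was called at E11.5 alone (-1.07 ± 0.347, adjusted p = 0.013). Lef1 was no longer called at E11.5 without EGFP- replicate 1 (-1.05, adjusted p = 0.0549) or without EGFP+ replicate 1 (-0.94, adjusted p = 0.0792). Its E15.5 difference of -0.16 ± 0.347 (adjusted p = 0.714) was called without EGFP- replicate 2 (-0.76, adjusted p = 0.0478).

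The median difference of the BMP and GDF ligands was below 0 at E11.5 and above 0 at both later stages. Of 20 looked for, 8 were in the table. At E11.5, 4 were lower (50%, against 44.9% of all genes) and 1 higher in EGFP+ cells. At E13.5 none was lower and 3 were higher (37.5%, against 32.1% of all), and at E15.5 none was lower and 5 were higher (62.5%, against 25.8%). The role's median log2 fold change went from -0.48 to 0.32 and 1.37, beside -0.19, -0.19 and -0.11 over all genes.

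Bmp7 (chromosome 2, 172868012 to 172940321), a BMP of the hem, choroid plexus and meninges, changed sides between the populations. Bmp7 measured 10.9 and 11.9 FPKM in the EGFP- libraries of E11.5, 1.35 and 0.531 in those of E13.5 and 0.685 and 0.417 in those of E15.5, against 6.19 and 6.86, 1.57 and 1.22, and 2.01 and 3.78 FPKM in the EGFP+ libraries. In EGFP- cells both later stages lay far below E11.5. In EGFP+ cells the E15.5 pair lay above the E13.5 pair and below the E11.5 pair. From E11.5 to E15.5 Bmp7 fell in EGFP+ cells (-0.99 ± 0.247, adjusted p = 0.00333) and fell more in EGFP- cells (-3.00 ± 0.247, adjusted p = 7.33e-07). At E11.5 the EGFP- pair was the higher, at E13.5 the pairs overlapped, and at E15.5 the EGFP+ pair was the higher. Bmp7 had log2 fold changes of -0.72 ± 0.247 (adjusted p = 0.0176) at E11.5, 0.33 ± 0.247 (adjusted p = 0.238) at E13.5 and 1.30 ± 0.247 (adjusted p = 0.00101) at E15.5. Bmp7 was no longer called at E11.5 without EGFP- replicate 2 (-0.66, adjusted p = 0.081) or without EGFP+ replicate 1 (-0.66, adjusted p = 0.0852), or with a pseudocount of 0.1 (-0.79, adjusted p = 0.0836), or with median-of-ratios scaling (-0.48, adjusted p = 0.0777). The change of the difference from E11.5 to E15.5 was 2.01 ± 0.349 (adjusted p = 0.000572).

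Gdf5 (chromosome 2, 155941023 to 155945367), a GDF better known from joints, gave the largest E15.5 difference of all 68 genes. Gdf5 read 1.25 and 1.44 FPKM (E11.5), 0.377 and 0.202 (E13.5) and 0.131 and 0.0373 (E15.5) in EGFP- cells, and 0.0521 and 0.149, 0.208 and 0.1502, and 5.69 and 12.9 FPKM in EGFP+ cells. Its 2 E15.5 EGFP+ libraries were more than 2-fold apart, and both stood above every other library. Gdf5 had log2 fold changes of -1.09 ± 0.251 (adjusted p = 0.00163) at E11.5, -0.13 ± 0.251 (adjusted p = 0.658) at E13.5 and 3.15 ± 0.251 (adjusted p = 3.05e-06) at E15.5. Bmp3, an atypical BMP that opposes others, set the populations apart earlier. Bmp3 stood at 0.265 and 0.229 FPKM (E11.5), 4.36 and 4.96 (E13.5) and 4.62 and 2.29 (E15.5) in the EGFP+ libraries, where the EGFP- libraries held 0.293 and 0.128, 0.587 and 0.587, and 0.378 and 0.253. The populations overlapped at E11.5 (0.05 ± 0.204, adjusted p = 0.842), and the EGFP+ cells were higher at E13.5 (1.83 ± 0.204, adjusted p = 1.87e-05) and E15.5 (1.71 ± 0.204, adjusted p = 4.09e-05).

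Bmp5 and Gdf10 were likewise higher in EGFP+ cells at E13.5, at 0.85 for Bmp5 (adjusted p = 0.0163) and 1.02 for Gdf10 (adjusted p = 0.000265), and at E15.5, at 2.01 for Bmp5 (adjusted p = 0.000115) and 1.45 for Gdf10 (adjusted p = 3.95e-05). Bmp5 was no longer called at E13.5 without EGFP- replicate 2 (0.73, adjusted p = 0.0874) or without EGFP+ replicate 1 (0.71, adjusted p = 0.0901). Bmp4 and Bmp6 were lower at E11.5 and not called later. Bmp6 read 2.72 and 2.54 FPKM (E11.5), 0.223 and 0.0193 (E13.5) and 0.0468 and 0.0357 (E15.5) in EGFP- cells, and 0.316 and 0.333, 0.0221 and 0.0479, and 0.235 and 0.229 FPKM in EGFP+ cells. The E11.5 EGFP- libraries of Bmp6 stood above all others, with a difference of -1.45 ± 0.105 (adjusted p = 5.48e-07). Bmp4 was at 2.79 and 3.76 FPKM in EGFP- and 0.778 and 0.935 FPKM in EGFP+ cells at E11.5 (-1.195 ± 0.1199, adjusted p = 3.97e-06), and under 0.1 FPKM in every later library. Gdf11, which restrains neuron production in other neural tissues, was the ligand called higher at E11.5. Gdf11 stood at 17.9 and 16.5 FPKM (E11.5), 6.08 and 5.67 (E13.5) and 4.61 and 3.81 (E15.5) in the EGFP+ libraries, where the EGFP- libraries held 10.1 and 12.99, 4.72 and 4.37, and 4.49 and 5.06. Its log2 fold change was 0.54 ± 0.169 (adjusted p = 0.0106) at E11.5, 0.31 ± 0.169 (adjusted p = 0.114) at E13.5 and -0.15 ± 0.169 (adjusted p = 0.46) at E15.5. Gdf11 was no longer called at E11.5 without EGFP- replicate 1 (0.38, adjusted p = 0.117) or without EGFP+ replicate 1 (0.49, adjusted p = 0.068). Gdf11 passed the test at E13.5 with median-of-ratios scaling (0.57, adjusted p = 0.0102).

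**Figure D3:**
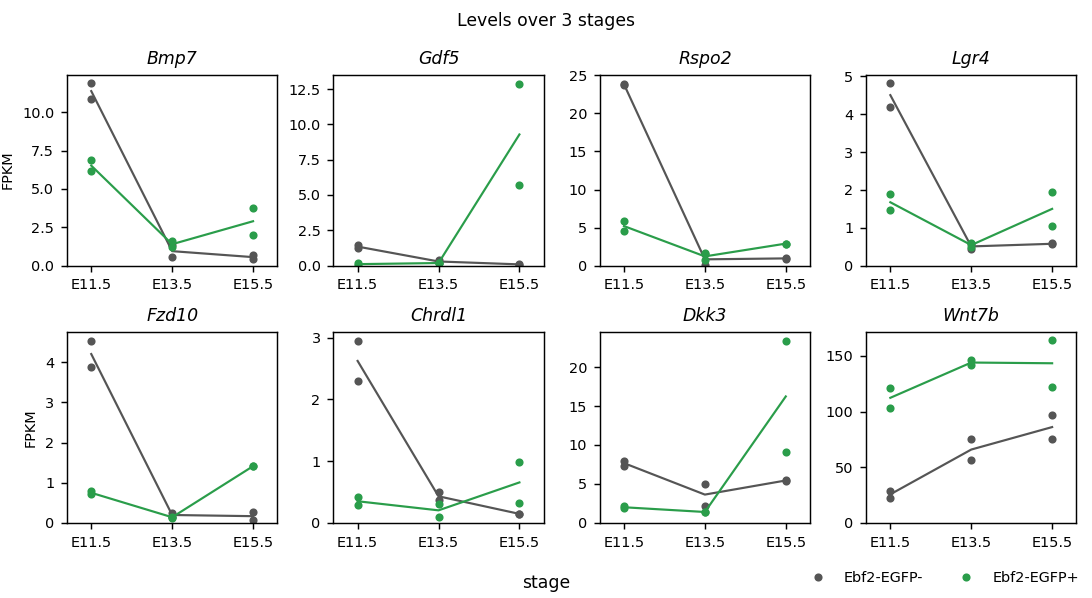
FPKM at each stage for the 7 genes called lower at E11.5 and higher at E15.5 in Ebf2-EGFP+ cells, and for Wnt7b. Points are libraries, lines join group means, Ebf2-EGFP- cells are grey and Ebf2-EGFP+ cells green. In the first 7 panels the grey points lead at E11.5 and the green points at E15.5. In Wnt7b the green points lead at every stage.

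Bmp7, Gdf5, Rspo2, Lgr4, Fzd10, Chrdl1 and Dkk3 were the 7 genes called lower at E11.5 and higher at E15.5. Their E15.5 differences, with 1 exception, lay at or under 1.30 on the log2 scale, and that exception was Gdf5 at 3.15. On the log2(FPKM + 1) scale a negative difference also moves up where a gene falls to low FPKM in both populations. Over all 68 members 55 were called for the change of the difference (41 up, 14 down), beside 59.8% of all genes, 32% up and 27.7% down. This change, which shares its libraries with the stage comparisons, was called for each of the 7, from 1.69 for Lgr4 (adjusted p = 0.000203) to 4.24 for Gdf5 (adjusted p = 6.49e-06). In all but Dkk3 the EGFP- level fell from E11.5 to E15.5, from -3.68 for Rspo2 (adjusted p = 8.91e-07) to -1.11 for Gdf5 (adjusted p = 0.00129), and for Dkk3 it was -0.43 (adjusted p = 0.277). In EGFP+ cells Gdf5 and Dkk3 rose, by 3.13 and 2.38 (adjusted p = 8.14e-07 and 9.04e-05), and so did Fzd10, by 0.46 (adjusted p = 0.00565), a call lost with a pseudocount of 0.1 (0.83, adjusted p = 0.0545). Bmp7 fell in EGFP+ cells (-0.99, adjusted p = 0.00333), and Rspo2, Lgr4 and Chrdl1 were not called there (adjusted p = 0.0714, 0.553 and 0.183). The E11.5 call of Bmp7 and the E15.5 calls of Rspo2, Lgr4, Chrdl1 and Dkk3 were each lost without 1 or more single libraries, as given with each gene. With the replicate number as a block the change was also called for Fzd2 (-1.17, adjusted p = 0.000261), Tgfbr1 (-0.49, adjusted p = 0.0197), Rspo3 (0.42, adjusted p = 0.0354), Wls (0.76, adjusted p = 0.00845), Lef1 (0.91, adjusted p = 0.00341), Apcdd1 (1.07, adjusted p = 0.000245) and Axin2 (1.13, adjusted p = 0.000674).

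**Figure D4:**
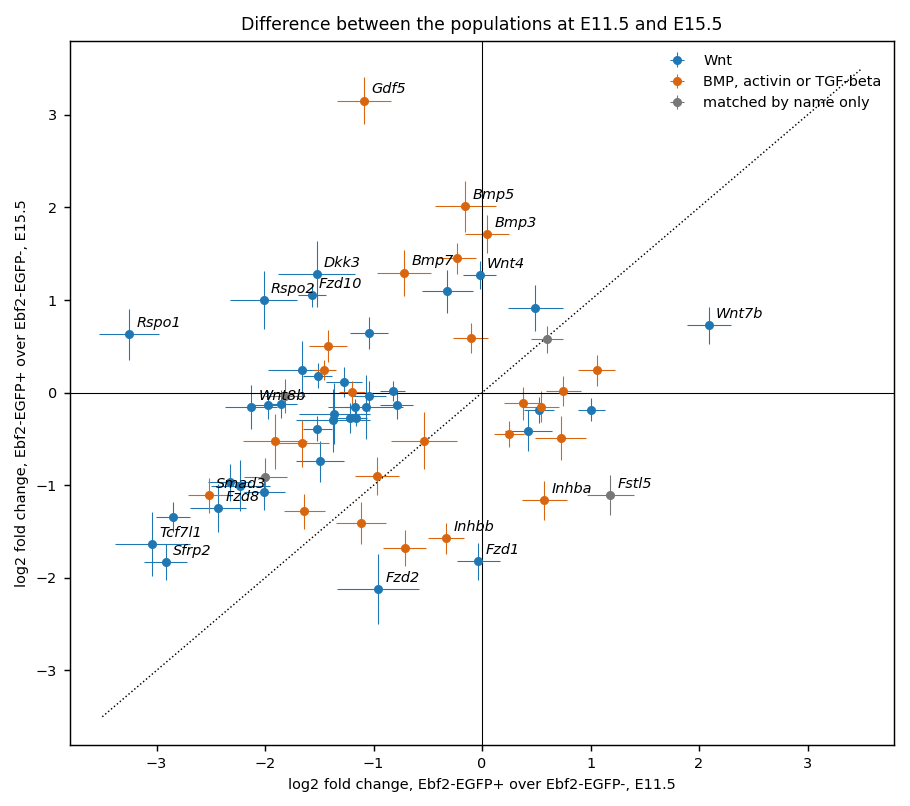
Each point is a signalling gene, with its log2 fold change between the populations at E11.5 on the horizontal axis and at E15.5 on the vertical axis, on the log2(FPKM + 1) scale. Bars are standard errors from limma and the dotted line marks equal differences. Most points lie left of 0 and above the dotted line. Gdf5 is highest, at 3.15 on the vertical axis, and Wnt7b is farthest right, at 2.09.

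Secreted modulators of BMPs and activins numbered 5 of 9 looked for. Bmper was lower in EGFP+ cells at every stage. Bmper measured 6.003 and 4.995 FPKM in the EGFP- libraries of E11.5, 7.97 and 5.56 in those of E13.5 and 4.22 and 3.24 in those of E15.5, against 1.104 and 1.06, 0.489 and 0.335, and 0.866 and 1.01 FPKM in the EGFP+ libraries. Its populations did not overlap, and the E13.5 gap was the widest. Bmper had log2 fold changes of -1.64 ± 0.186 (adjusted p = 9.46e-06) at E11.5, -2.44 ± 0.186 (adjusted p = 3.42e-06) at E13.5 and -1.28 ± 0.186 (adjusted p = 0.000158) at E15.5. Noggin (Nog), which keeps BMPs from their receptors, was higher in EGFP- cells at first. Nog read 8.31 and 5.98 FPKM (E11.5), 6.47 and 4.73 (E13.5) and 4.38 and 1.86 (E15.5) in EGFP- cells, and 1.43 and 0.893, 1.25 and 0.8802, and 2.25 and 1.29 FPKM in EGFP+ cells. It was lower in EGFP+ cells at E11.5 (-1.91 ± 0.297, adjusted p = 9.53e-05) and E13.5 (-1.67 ± 0.297, adjusted p = 0.00038), and at E15.5 its libraries overlapped (-0.52 ± 0.297, adjusted p = 0.148). Nog passed the test at E15.5 with the replicate number as a block (adjusted p = 0.00916).

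Chrdl1, a Chordin-like BMP antagonist, was lower at E11.5 (-1.42 ± 0.175, adjusted p = 1.74e-05) and higher at E15.5 (0.501 ± 0.175, adjusted p = 0.0284), with all E15.5 libraries under 1 FPKM. Chrdl1 was no longer called at E15.5 without EGFP- replicate 1 (0.502, adjusted p = 0.0849), without EGFP- replicate 2 (0.501, adjusted p = 0.072) or without EGFP+ replicate 2 (0.21, adjusted p = 0.279), or when only the compared groups were fitted (0.501, adjusted p = 0.0841). Follistatin (Fst), which binds activins, was higher in EGFP+ cells at E11.5 (0.72 ± 0.235, adjusted p = 0.0133). Fst was no longer called at E11.5 without EGFP- replicate 2 (0.60, adjusted p = 0.0903) or without EGFP+ replicate 1 (0.63, adjusted p = 0.0803). Its E15.5 difference was below 0 (-0.49 ± 0.235, adjusted p = 0.094). Fst passed the test at E15.5 with the replicate number as a block (adjusted p = 0.0209).

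The activin subunit genes Inhba and Inhbb were higher in EGFP- cells at E15.5. Inhbb measured 0.5100 and 0.891 FPKM in the EGFP- libraries of E11.5, 7.37 and 7.62 in those of E13.5 and 10.04 and 9.39 in those of E15.5, against 0.299 and 0.389, 1.95 and 1.87, and 2.93 and 2.29 FPKM in the EGFP+ libraries. The rise with age was in both populations and larger in EGFP- cells. Inhbb had log2 fold changes of -0.33 ± 0.165 (adjusted p = 0.0819) at E11.5, -1.55 ± 0.165 (adjusted p = 1.44e-05) at E13.5 and -1.57 ± 0.165 (adjusted p = 1.81e-05) at E15.5. Inhbb passed the test at E11.5 with the replicate number as a block (adjusted p = 0.0462). Inhba read 0.0336 and 0.0555 FPKM (E11.5), 0.142 and 0.641 (E13.5) and 2.56 and 4.38 (E15.5) in EGFP- cells, and 0.414 and 0.709, 0.696 and 0.688, and 0.785 and 1.14 FPKM in EGFP+ cells. Inhba was higher in EGFP+ cells at E11.5 (0.57 ± 0.2095, adjusted p = 0.0238), at under 1 FPKM, and lower at E15.5 (-1.16 ± 0.2095, adjusted p = 0.000693). Inhba was no longer called at E11.5 without EGFP- replicate 1 (0.56, adjusted p = 0.0847), without EGFP- replicate 2 (0.59, adjusted p = 0.0704) or without EGFP+ replicate 2 (0.44, adjusted p = 0.15).

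Of TGF-beta ligands only Tgfb2 was in the table, with 3 latent TGF-beta binding proteins, which hold TGF-beta inactive in the matrix. Ltbp1 measured 2.56 and 1.802 FPKM in the EGFP- libraries of E11.5, 4.98 and 4.66 in those of E13.5 and 5.79 and 4.21 in those of E15.5, against 0.748 and 1.12, 0.564 and 0.547, and 1.13 and 0.624 FPKM in the EGFP+ libraries. Ltbp1 was lower in EGFP+ cells at each stage, at -0.71 ± 0.196 (adjusted p = 0.00508), -1.90 ± 0.196 (adjusted p = 1.15e-05) and -1.68 ± 0.196 (adjusted p = 3.62e-05). Ltbp1 was no longer called at E11.5 without EGFP- replicate 1 (-0.54, adjusted p = 0.0588) or without EGFP+ replicate 1 (-0.57, adjusted p = 0.054). Ltbp3 was lower too, at -1.11 ± 0.229 (adjusted p = 0.000754), -1.13 ± 0.229 (adjusted p = 0.000943) and -1.41 ± 0.229 (adjusted p = 0.000352), and its level rose with age in both populations. Ltbp4 stood at 1.81 and 2.56 FPKM (E11.5), 1.59 and 1.802 (E13.5) and 3.900 and 2.49 (E15.5) in the EGFP+ libraries, where the EGFP- libraries held 8.39 and 9.71, 10.1 and 8.12, and 6.78 and 3.68. Ltbp4 was lower at E11.5 (-1.66 ± 0.255, adjusted p = 8.65e-05) and E13.5 (-1.90 ± 0.255, adjusted p = 5.78e-05), and its E15.5 difference was -0.55 ± 0.255 (adjusted p = 0.0854). Ltbp4 passed the test at E15.5 with the replicate number as a block (adjusted p = 0.00853). Tgfb2 was called at no stage, with differences of -0.53 ± 0.305 (adjusted p = 0.125), -0.67 ± 0.305 (adjusted p = 0.0627) and -0.52 ± 0.305 (adjusted p = 0.162). Tgfb2 passed the test at E11.5 with the replicate number as a block (adjusted p = 0.0117). Tgfb2 also passed the test at E13.5 with the replicate number as a block (adjusted p = 0.00339). Tgfb2 likewise passed the test at E15.5 with the replicate number as a block (adjusted p = 0.0179).

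Of 9 receptors looked for 5 were in the table, with 2 called higher in EGFP+ cells at E11.5. Acvr1b measured 11.6 and 13.2 FPKM in the EGFP- libraries of E11.5, 16.8 and 20.8 in those of E13.5 and 24.4 and 25.4 in those of E15.5, against 23.3 and 31.00, 23.6 and 23.1, and 31.98 and 27.4 FPKM in the EGFP+ libraries. Acvr1b, an activin type I receptor, was higher in EGFP+ cells at E11.5 (1.06 ± 0.1697, adjusted p = 0.000121), and its later differences were 0.31 ± 0.1697 (adjusted p = 0.12) and 0.24 ± 0.1697 (adjusted p = 0.239). Acvr1b passed the test at E13.5 with the replicate number as a block (adjusted p = 0.0429) and with median-of-ratios scaling (0.60, adjusted p = 0.011). Acvr2a, a type II receptor, was higher at E11.5 (0.75 ± 0.163, adjusted p = 0.00114). Acvr1 read 10.3 and 8.96 FPKM (E11.5), 12.4 and 14.8 (E13.5) and 16.3 and 18.8 (E15.5) in EGFP- cells, and 8.86 and 8.85, 19.9 and 24.9, and 28.6 and 25.3 FPKM in EGFP+ cells. Acvr1, which carries BMP signals, rose with age and was higher in EGFP+ cells at E13.5 (0.68 ± 0.163, adjusted p = 0.00284) and E15.5 (0.59 ± 0.163, adjusted p = 0.00868). Acvr1 was no longer called at E15.5 without EGFP- replicate 1 (0.49, adjusted p = 0.0663) or without EGFP+ replicate 1 (0.51, adjusted p = 0.0603).

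Acvr2b fell with age in both populations. Acvr2b stood at 29.9 and 30.4 FPKM (E11.5), 11.1 and 10.3 (E13.5) and 5.099 and 4.58 (E15.5) in the EGFP+ libraries, where the EGFP- libraries held 25.8 and 24.6, 14.9 and 14.3, and 6.46 and 7.53. At E11.5 its difference was 0.25 ± 0.1398 (adjusted p = 0.119). Acvr2b passed the test at E11.5 with median-of-ratios scaling (0.498, adjusted p = 0.00889). Its EGFP+ libraries lay under the EGFP- libraries at E13.5 (-0.41 ± 0.1398, adjusted p = 0.0181) and E15.5 (-0.45 ± 0.1398, adjusted p = 0.0164). Acvr2b was no longer called at E13.5 without EGFP- replicate 1 (-0.38, adjusted p = 0.0682) or without EGFP+ replicate 2 (-0.37, adjusted p = 0.0985), or with median-of-ratios scaling (-0.13, adjusted p = 0.461), or when only the compared groups were fitted (-0.41, adjusted p = 0.0716). Acvr2b was no longer called at E15.5 without EGFP- replicate 2 (-0.36, adjusted p = 0.101) or without EGFP+ replicate 2 (-0.39, adjusted p = 0.0841), or with median-of-ratios scaling (-0.28, adjusted p = 0.133), or when only the compared groups were fitted (-0.45, adjusted p = 0.125). Tgfbr1, the TGF-beta type I receptor, had the highest level of these receptors and was called at no stage, with differences of 0.37 ± 0.176 (adjusted p = 0.0672), 0.24 ± 0.176 (adjusted p = 0.228) and -0.12 ± 0.176 (adjusted p = 0.586) in stage order. Tgfbr1 passed the test at E11.5 with the replicate number as a block (adjusted p = 0.0105) and with median-of-ratios scaling (0.63, adjusted p = 0.0119). Tgfbr1 also passed the test at E13.5 with median-of-ratios scaling (0.55, adjusted p = 0.0264).

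Only Smad3 and Smad6 of 8 Smads were in the table. Smad3, which carries activin and TGF-beta signals, was high in early EGFP- cells. Smad3 measured 32.6 and 24.5 FPKM in the EGFP- libraries of E11.5, 10.5 and 8.86 in those of E13.5 and 5.19 and 4.59 in those of E15.5, against 3.87 and 4.37, 1.71 and 1.44, and 1.504 and 1.97 FPKM in the EGFP+ libraries. Each EGFP- library exceeded each EGFP+ library of its stage. Smad3 had log2 fold changes of -2.52 ± 0.187 (adjusted p = 6.48e-07) at E11.5, -2.05 ± 0.187 (adjusted p = 6.28e-06) at E13.5 and -1.11 ± 0.187 (adjusted p = 0.000445) at E15.5. Smad6, an inhibitory Smad of the BMP branch, was lower in EGFP+ cells by nearly the same amount at each stage (-0.96, -0.98 and -0.90, adjusted p at most 0.00291). The 2 genes lie 195 kb apart on chromosome 9.

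The genes matched by name alone were varied. Fstl1, a secreted glycoprotein with a follistatin domain, was lower in EGFP+ cells at each stage. Fstl1 read 46.6 and 43.03 FPKM (E11.5), 19.4 and 16.3 (E13.5) and 16.8 and 12.3 (E15.5) in EGFP- cells, and 9.74 and 11.2, 6.12 and 6.11, and 8.78 and 5.87 FPKM in EGFP+ cells. Its differences were -1.998 ± 0.1997 (adjusted p = 3.93e-06), -1.40 ± 0.1997 (adjusted p = 8.53e-05) and -0.91 ± 0.1997 (adjusted p = 0.00243). Fstl5 stood at 20.3 and 17.3 FPKM (E11.5), 12.4 and 7.63 (E13.5) and 3.56 and 4.76 (E15.5) in the EGFP+ libraries, where the EGFP- libraries held 8.55 and 6.89, 19.3 and 16.2, and 9.67 and 10.4. Fstl5 crossed over in the direction opposite to Bmp7, higher in EGFP+ cells at E11.5 (1.18 ± 0.2197, adjusted p = 0.000361) and lower at E13.5 (-0.80 ± 0.2197, adjusted p = 0.00629) and E15.5 (-1.11 ± 0.2197, adjusted p = 0.0013). Fstl5 was no longer called at E13.5 without EGFP- replicate 1 (-0.68, adjusted p = 0.0514) or without EGFP+ replicate 2 (-0.48, adjusted p = 0.0865). Tgfb1i1 read 2.06 and 1.75 FPKM (E11.5), 0.632 and 0.741 (E13.5) and 1.01 and 1.32 (E15.5) in EGFP- cells, and 3.66 and 3.16, 0.812 and 0.675, and 2.45 and 2.01 FPKM in EGFP+ cells. Tgfb1i1, a focal adhesion adaptor, was higher in EGFP+ cells at E11.5 (0.60 ± 0.146, adjusted p = 0.0024) and E15.5 (0.58 ± 0.146, adjusted p = 0.0058). Tgfb1i1 was no longer called at E15.5 without EGFP- replicate 1 (0.47, adjusted p = 0.0519). Tgfbi, a matrix protein, was lower at E11.5 (-1.81 ± 0.184, adjusted p = 4.26e-06).

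Some differences that were not called between populations passed the test with 1 library left out. At E13.5, without EGFP- replicate 2, these were Inhba (0.57, adjusted p = 0.0445), Rspo1 (-0.89, adjusted p = 0.00246), Wif1 (-0.38, adjusted p = 0.0395), Wnt2b (-0.40, adjusted p = 0.0266) and Wnt8b (-0.65, adjusted p = 0.0223), and without EGFP- replicate 1 it was Rspo2 (0.95, adjusted p = 0.00857). At E15.5, without EGFP- replicate 2, they were Fst (-0.75, adjusted p = 0.031), Ltbp4 (-0.91, adjusted p = 0.0105), Nkd1 (-0.64, adjusted p = 0.0461), Nog (-0.98, adjusted p = 0.0127), Tgfb2 (-0.97, adjusted p = 0.017) and Wnt10a (-0.38, adjusted p = 0.0208), beside Lef1. At E11.5 Gdf10 passed without EGFP+ replicate 2 (-0.46, adjusted p = 0.0441). At low levels a pseudocount of 0.1 also brought calls, for Fzd5 (-0.94, adjusted p = 0.00698), Tgfbi (-0.95, adjusted p = 0.0297) and Wnt4 (1.05, adjusted p = 0.0149) at E13.5, for Bmp6 (1.23, adjusted p = 0.0169) and Dkk2 (-1.03, adjusted p = 0.00817) at E15.5 and for Inhbb (-0.82, adjusted p = 0.0146) at E11.5. Bmp6 passed at E15.5 with median-of-ratios scaling as well (0.28, adjusted p = 0.0268).

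Change with age within each population was compared between E11.5 and E15.5. In EGFP- cells 56 members were called (82.4%, against 85.4% of all genes), with 7 higher and 49 lower at E15.5, where 37.7% and 47.6% of all genes were called in those directions. The largest falls were those of Rspo1 (-4.57, adjusted p = 8.93e-08), Wnt8b (-4.26, adjusted p = 6.23e-08) and Rspo2 (-3.68, adjusted p = 8.91e-07), and the largest rises those of Inhbb (2.66, adjusted p = 1.03e-07) and Inhba (2.07, adjusted p = 3.14e-06). In EGFP+ cells 42 were called (61.8%, against 75.4% of all), with 12 higher and 30 lower, beside 33.3% and 42.1% of all genes. Median-of-ratios scaling turned that split to 17 higher and 26 lower. Over both populations it ended 10 calls, those of Bmper, Fzd2, Fzd3, Ltbp4, Tgfb1i1 and Tgfb2 in EGFP- and of Fstl1, Rspo1, Sfrp2 and Tgfb1i1 in EGFP+ cells. Gdf5 (3.13, adjusted p = 8.14e-07) and Dkk3 (2.38, adjusted p = 9.04e-05) rose most, and Acvr2b (-2.41, adjusted p = 9.94e-08) and Wnt8b (-2.29, adjusted p = 5.87e-06) fell most. These comparisons share libraries with each other and with those between populations.

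For many of these genes the EGFP- level was already low at E13.5. In 20 of the 68 genes (29.4%) both E13.5 EGFP- libraries were under a 1 in 4 share of both E11.5 EGFP- libraries, as they were in 246 of all 4859 genes (5.06%). This limit was set after the values were seen. The 20 were Bmp4, Bmp5, Bmp6, Bmp7, Chrdl1, Dkk2, Fzd5, Fzd10, Gdf10, Lgr4, Rspo1, Rspo2, Rspo3, Tgfbi, Wif1, Wnt3a, Wnt4, Wnt5a, Wnt8b and Wnt9a. Their summed level in EGFP- cells, which falls by the way they were chosen, was 153 and 151 FPKM (E11.5), 13.1 and 7.33 FPKM (E13.5) and 20.4 and 12.7 FPKM (E15.5). In EGFP+ cells it was 56.8 and 65.3, 32.3 and 28.7, and 47.4 and 42.3 FPKM. Rspo3 alone gave most of the EGFP+ sum at E13.5. Without Rspo3 the sums at E13.5 overlapped, at 10.03 and 4.01 FPKM in EGFP- and 13.3 and 8.79 FPKM in EGFP+ cells, and those at E15.5 were 7.48 and 4.89 against 21.1 and 27.4 FPKM. Within the E13.5 EGFP- pair, replicate 1 was the higher for 15 of the 20 (75.0%), as it was for 60.2% of all genes.

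Summed markers of other tissues were taken from the same libraries. The 4 listed hem or choroid plexus genes (Lmx1a, Ttr, Folr1 and Otx2, of 5 looked for) summed to 57.6 to 80.2 FPKM (E11.5), 0.354 to 4.10 (E13.5) and 0.357 to 0.815 (E15.5) in EGFP- cells, against 6.82 to 8.003, 0.978 to 2.08 and 1.59 to 1.72 FPKM in EGFP+ cells. All 7 meninges or fibroblast genes were listed, and summed to 112 to 132, 3.90 to 5.67 and 2.82 to 3.66 FPKM in EGFP- cells and to 42.7 to 47.8, 1.09 to 1.69 and 0.893 to 2.78 FPKM in EGFP+ cells. Erythroid genes (4 of 6) summed to 1306 to 2752 FPKM in EGFP- and 32.9 to 97.1 FPKM in EGFP+ cells at E11.5, and to at most 23.2 FPKM in any later library. The 5 listed endothelial or mural genes, of 7 looked for, stood at 10.3 to 15.1, 7.997 to 9.15 and 5.86 to 8.38 FPKM in EGFP- cells and at 1.16 to 4.92 FPKM over the EGFP+ libraries. At E15.5 the EGFP+ libraries listed Lmx1a, a hem transcription factor, at 1.35 and 1.37 FPKM and Ttr, which marks choroid plexus, at 0 in both. Their part in the fall of the signalling genes was not tested.

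**Figure D5:**
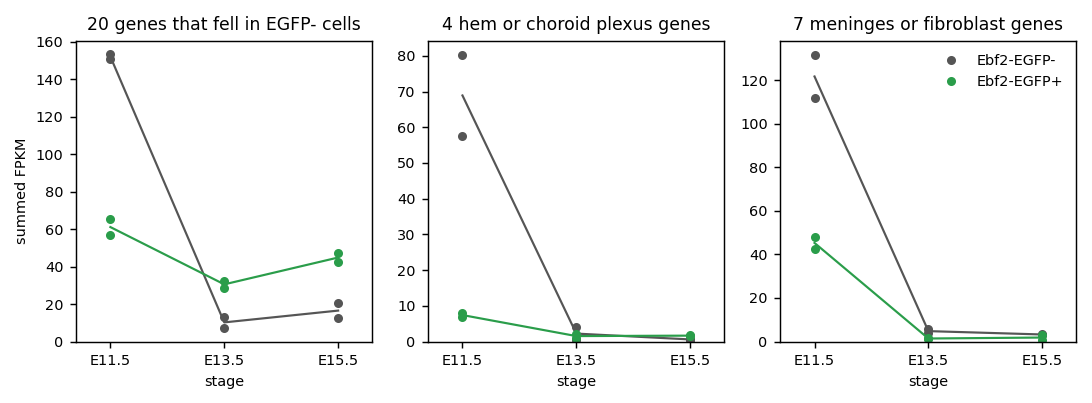
Summed FPKM of the 20 signalling genes chosen for their fall from E11.5 to E13.5 in Ebf2-EGFP- cells (left), of 4 hem or choroid plexus genes (middle) and of 7 meninges or fibroblast genes (right). Points are libraries, lines join group means, and axes start at 0. In grey, the Ebf2-EGFP- cells drop in all 3 panels after E11.5. In the left panel the Ebf2-EGFP+ cells, in green, lie between 28.7 and 65.3 FPKM, most of it Rspo3 at E13.5.

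Ganglionic eminence or interneuron markers (8 of 8 listed) also set the populations apart, at 180 to 239 FPKM in EGFP- and 11.7 to 14.9 FPKM in EGFP+ cells at E11.5, and at 75.4 to 86.3 against 2.67 to 3.42 FPKM at E15.5. Cell cycle genes (5 of 5) summed to 727 to 831 FPKM in EGFP- and 198 to 222 FPKM in EGFP+ cells at E11.5. At E15.5 they summed to 116 to 181 against 47.2 to 51.0 FPKM. Pcna alone gave 41.86 and 46.03 FPKM of these E15.5 EGFP+ sums. Mki67, Top2a, Ccnb1 and Cdk1 stood at 0.598 to 2.17 FPKM in EGFP+ and 4.12 to 28.04 FPKM in EGFP- cells at E15.5. All 5 genes were called lower in EGFP+ cells at E15.5, with a median log2 fold change of -2.57. The sums ran in the direction of the 16 genes that were lower in EGFP+ cells throughout. The part of cells with these markers in the differences of Tcf7l1, Sfrp2, Fzd8 and the like was not tested. Nor was their part in the fall of the signalling genes after E11.5.

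Other genes of the pathways, not taken by the symbol rule, were counted from lists. Of 41 other Wnt pathway genes 21 were in the table, and 16 were called at E11.5 (9 higher, 7 lower), or 76.2% against 81.7% of all genes. At E13.5 it was 20 (95.2%, against 75.6%), of which 12 were higher, and at E15.5 it was 12 (57.1%, against 57.4%), of which 6 were higher. At E11.5 the largest differences were those of Celsr3 and Apc2 (2.01 and 1.97), a planar polarity cadherin and a neuronal APC protein, and of Ccnd1 and Tnfrsf19 (-2.48 and -1.98). At E13.5 they were those of Prickle1 and Prickle2 (1.67 and 1.22), both planar polarity genes, and of Ccnd1 and Celsr1 (-2.53 and -1.70). At E15.5 Prickle1 and the corepressor Tle4 (both 2.52) stood against Celsr1 and Ccnd1 (-2.88 and -1.49).

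Of 32 other BMP or TGF-beta pathway genes 20 were in the table, and 16 were called at E11.5 (4 higher, 12 lower). That 80% is close to the 81.7% of all genes. At E13.5 it was 15 (75%, against 75.6%), of which 4 were higher, and at E15.5 it was 11 (55%, against 57.4%), of which 2 were higher. The Id genes, which are direct BMP targets and restrain neuronal differentiation factors, were the most strongly lower in EGFP+ cells, with Id3 at -3.03 ± 0.421 (adjusted p = 4.16e-05) and Id1 at -2.01 ± 0.233 (adjusted p = 1.13e-05) at E11.5, Id4 at -3.46 ± 0.331 (adjusted p = 7.88e-06) and Id3 at -2.24 ± 0.421 (adjusted p = 0.00056) at E13.5, and Id3 at -2.54 ± 0.421 (adjusted p = 0.000403) and Id1 at -1.82 ± 0.233 (adjusted p = 6.62e-05) at E15.5. Rgmb, a BMP co-receptor, was higher at E11.5 (2.46 ± 0.153, adjusted p = 1.99e-07) and at E15.5 (0.78 ± 0.153, adjusted p = 0.0012), and with it Skil at E11.5 (0.91 ± 0.162, adjusted p = 0.000255), Neo1 and Zeb2 at E13.5 (0.82 and 0.78) and Rgma at E15.5 (0.72 ± 0.189, adjusted p = 0.00691).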

How the data were processed

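The authors sorted cortical cells of pooled Ebf2-EGFP embryos, made oligo-dT libraries, aligned the reads to mm10 with TopHat2 2.0.8b and deposited FPKM from Cufflinks 2.2.0 for 12 libraries (6 groups of 2), in a table of 4859 coding genes they reported as differential. The differential test is named both as Cuffdiff and as DE-Seq in the sources. The fold, p-value and q-value columns of the authors were not used, nor was the table of lncRNAs.

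Members and lists were chosen with earlier results of these data known. FPKM are not counts, so log2(FPKM + 1) values of all genes were fitted with limma 3.58.1 (R 4.3.3) as 6 groups with a mean-variance trend, which leaves 6 residual degrees of freedom, and the test is two-sided. The procedure was tested on simulated data. The simulated libraries were independent of each other. Changes were planted in a single group, in a small part of the genes, and only in genes above a level limit. Linked replicates, changes at low levels and lists in which most genes change were therefore not tried. Replicates are separate sorts, and p-values measure their spread. No label says that a replicate number marks a shared sort or day, so a pairing is not known. Between libraries of a stage with the same number, deviations from group means correlated at 0.43, 0.53 and 0.43 for the 3 stages in order. The main fit does not use these numbers. The fit with the replicate number as a block is therefore given where it changed a call. Values for every library were given for Bmp7 and, in each role, for the called, non-overlapping members with the highest and lowest difference at each stage. 1 member so named is not reported here and was left out of the plots of single genes, while counts over the members include it. A few others were named for the account and were chosen after their values were seen. Alternatives were a pseudocount of 0.1, a mean of at least 1 FPKM, median-of-ratios scaling, no trend, the compared groups alone, a 2-fold limit, an adjusted p under 0.01, the block and leaving out each library. Promoter bases and gene positions came from RefSeq (GRCm38.p6), where all 68 members matched a position and 47 a promoter.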

Additional observations from a re-analysis of the deposited data

Results flagged for a closer look

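The difference between the populations was not the same at E11.5 and at E15.5 in 55 of the 68 genes, by the test of the change itself in limma (adjusted p under 0.05), where 59.8% of all genes were called. In 41 the difference moved up, towards Ebf2-EGFP+ cells, and in 14 it moved down, beside 32% and 27.7% of all genes. On the log2(FPKM + 1) scale a difference also shrinks where a gene falls to low FPKM in both populations. A move up there need not be a gain relative to EGFP- cells. For Dkk2, group means were 0.204 FPKM in EGFP+ against 1.71 in EGFP- cells at E11.5, and 0.0143 against 0.133 at E15.5. Those of Tcf7l2 were 1.54 against 11.7 FPKM, then 0.211 against 1.40. The values that follow are that change, the E15.5 minus the E11.5 log2 fold change. No single library could be tested as standing apart, since groups hold 2.

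Among Wnt ligands it was -1.36 for Wnt7b, -1.19 for Wnt10a, 0.94 for Wnt7a, 1.29 for Wnt4, 1.39 for Wnt2b, 1.41 for Wnt5a, 1.70 for Wnt9a, 1.73 for Wnt3a and 1.97 for Wnt8b. In the R-spondin axis it was 1.01 for Znrf3, 1.69 for Lgr4, 3.01 for Rspo2 and 3.88 for Rspo1. Among Frizzleds it was -1.78 for Fzd1, -0.71 for Fzd3, 0.84 for Fzd4, 0.89 for Fzd5, 0.94 for Fzd6, 1.19 for Fzd8, 1.22 for Fzd9, 1.91 for Fzd7 and 2.62 for Fzd10. Among secreted Wnt modulators it was 0.65 for Wif1, 1.01 for Dkk2, 1.08 for Sfrp2, 1.504 for Sfrp1, 1.83 for Frzb and 2.81 for Dkk3. Among TCF/LEF factors it was 1.13 for Tcf7, 1.36 for Tcf7l2 and 1.41 for Tcf7l1. Among Wnt inhibitors it was -0.84 for Nkd1. Among BMP and GDF ligands it was -0.69 for Gdf11, 1.197 for Bmp4, 1.66 for Bmp3, 1.68 for Gdf10, 1.70 for Bmp6, 2.01 for Bmp7, 2.17 for Bmp5 and 4.24 for Gdf5. Among activin ligands it was -1.74 for Inhba and -1.24 for Inhbb. Among latency proteins it was -0.96 for Ltbp1 and 1.12 for Ltbp4. Among receptors it was -0.82 for Acvr1b, -0.73 for Acvr2a, -0.70 for Acvr2b and 0.70 for Acvr1. Among secreted BMP and activin modulators it was -1.21 for Fst, 1.39 for Nog and 1.92 for Chrdl1. Among Smads it was 1.41 for Smad3. Among genes matched by name only it was -2.29 for Fstl5, 1.09 for Fstl1 and 1.78 for Tgfbi.

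Of the 55 calls 12 were lost without 1 library or another, those of Acvr1, Acvr1b, Acvr2a, Fzd8, Fzd9, Gdf11, Ltbp1, Ltbp4, Nkd1, Nog, Tcf7l1 and Wif1. Without EGFP- replicate 2 of E15.5 the change was lower for Tcf7l1 (0.76, adjusted p = 0.0863) and Fzd8 (0.79, adjusted p = 0.059), and without EGFP+ replicate 2 of E15.5 it was nearer 0 for Nkd1 (-0.54, adjusted p = 0.142). With a pseudocount of 0.1 the calls of Tcf7l2 (0.504, adjusted p = 0.491), Tcf7l1 (0.80, adjusted p = 0.329), Fzd6 (1.02, adjusted p = 0.2), Wif1 (0.64, adjusted p = 0.533) and Wnt8b (1.72, adjusted p = 0.165) were lost, and 18 others that kept theirs were more than 1.5 times as large. Median-of-ratios scaling ended those of Acvr1 (0.67, adjusted p = 0.0552) and Wif1 (0.48, adjusted p = 0.051). The Wnt inhibitors Axin2 (1.13, adjusted p = 0.000674) and Apcdd1 (1.07, adjusted p = 0.000245) moved up, unlike Nkd1, and were called with the replicate number as a block.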

How the results depend on the processing

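With the replicate number as a block, 60, 39 and 46 members were called for the 3 stages in order and 62 for the change of the difference, against 55, 35, 39 and 55 without it, and of 272 values so fitted 23 gained a call and 0 lost one. The block could not be fitted to the change with age within a population. A 2-fold limit beside the adjusted p left 24 members (7 higher, 17 lower) for the change with age in Ebf2-EGFP+ cells, against 42. The other counts stayed within 1.5 times of theirs under every alternative run. Without 1 library in turn, the counts ran from 49 to 56 at E11.5, 30 to 39 at E13.5, 32 to 41 at E15.5, 49 to 57 for the change of the difference, 34 to 46 for Ebf2-EGFP+ and 48 to 57 for Ebf2-EGFP- cells with age. Of 408 differences, 282 were called, and 0 of these changed sign in any alternative run, while 56 of the 126 not called did. Of the called, 60 lost their call without 1 library and 31 under another alternative. With 2 libraries a group and depth unknown, levels under 1 FPKM have no counting error.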
